A study of Vanessa cardui with 14 samples.

Results

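Of the 13876 assembled genes measured in painted lady wings (Vanessa cardui), 19 met a rule for a clear hind wing peak at the ommochrome stage, when red and orange pigment first appears. The hind wing mean was highest at this stage in 1504 genes, and members were chosen by their FPKM among these. Both ommochrome hind wing libraries had to reach 5 FPKM (fragment counts normalised to gene length and to the mapped fragments of the library), and the lower of them had to be at least 1.5 times the highest of the 8 other hind wing libraries. The means of the red and black forewing regions had to be less than 2-fold apart. The hind wing condition alone was met by 22 genes, and the forewing condition removed 3 of them. The excess at the ommochrome stage and the likeness of red and black regions are therefore how the genes were found, and they are given without a test.

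Butterfly wing colour is laid down in scales, single flattened cells of the pupal wing, and scales of different colours mature at different times. Ommochromes are red, orange and brown pigments made from tryptophan by way of kynurenine. Melanins are black and brown pigments made from tyrosine, and in nymphalid butterflies such as this one the black scales gain their pigment after the red ones. The ommochrome stage thus lies between an unpigmented pupal wing and a wing in which black appears.

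Insects were reared from first instar under a long light cycle, and the labels give no strain, sex or experimental treatment. Whole hind wings were taken from last instar larvae, from pupae at 72 h and at 5 d after pupation (the last before pigment), and from pupae at the ommochrome and melanin stages. Forewings of pupae were cut into red and black regions, which the sample titles place at the melanin stage and the treatment protocol at the ommochrome stage. Each of the 7 groups had 2 libraries of poly-A RNA, and nothing in the labels says whether these came from separate animals.

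The summed FPKM of a library ran from 482546 to 833658. Relative to larval replicate 1, the estimated depth was 0.46 in melanin hind wing replicate 1 and 1 to 1.88 in the other libraries, with 1.58 and 1.88 in the ommochrome libraries. The spread between replicates was widest at 72 h (SD of their log2 difference across genes, 1.19), compared with 0.429 to 0.725 elsewhere. Gene names are absent from the deposited table and 0 of its identifiers occur in the reference gene table, so no pigment pathway gene or tissue marker could be looked up and no sequence is shown. In bulk wings, fewer cells of a type and less RNA per cell cannot be told apart.

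The 19 genes were mostly of low to middle abundance. Their mean at the ommochrome stage ran from 6.14 to 305 FPKM with a median of 20.2, and 1 gene was above 100 FPKM. Together they held 0.158% and 0.118% of the summed FPKM in the ommochrome libraries, against 0.03% to 0.0425% at the melanin stage, 0.00612% to 0.0221% at the earlier stages and 0.0751% to 0.114% in the forewing. The most abundant gene, c25015_g2, made up 49.7% and 29.6% of the members' sum in the ommochrome libraries and 59.2% to 65.4% in the forewing. Without it the share was 0.0797% and 0.0833% in ommochrome, 0.0234% and 0.0255% in melanin, 0.00476% to 0.0113% in earlier hind wing and 0.029% to 0.0424% in forewing libraries. The ratio of the lower ommochrome library to the highest other hind wing library had a median of 1.95 and reached 2 in 9 genes and 3 in 4 genes. The ommochrome replicates were within 1.5-fold of each other in 14 of the 19.

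**Figure D1:**
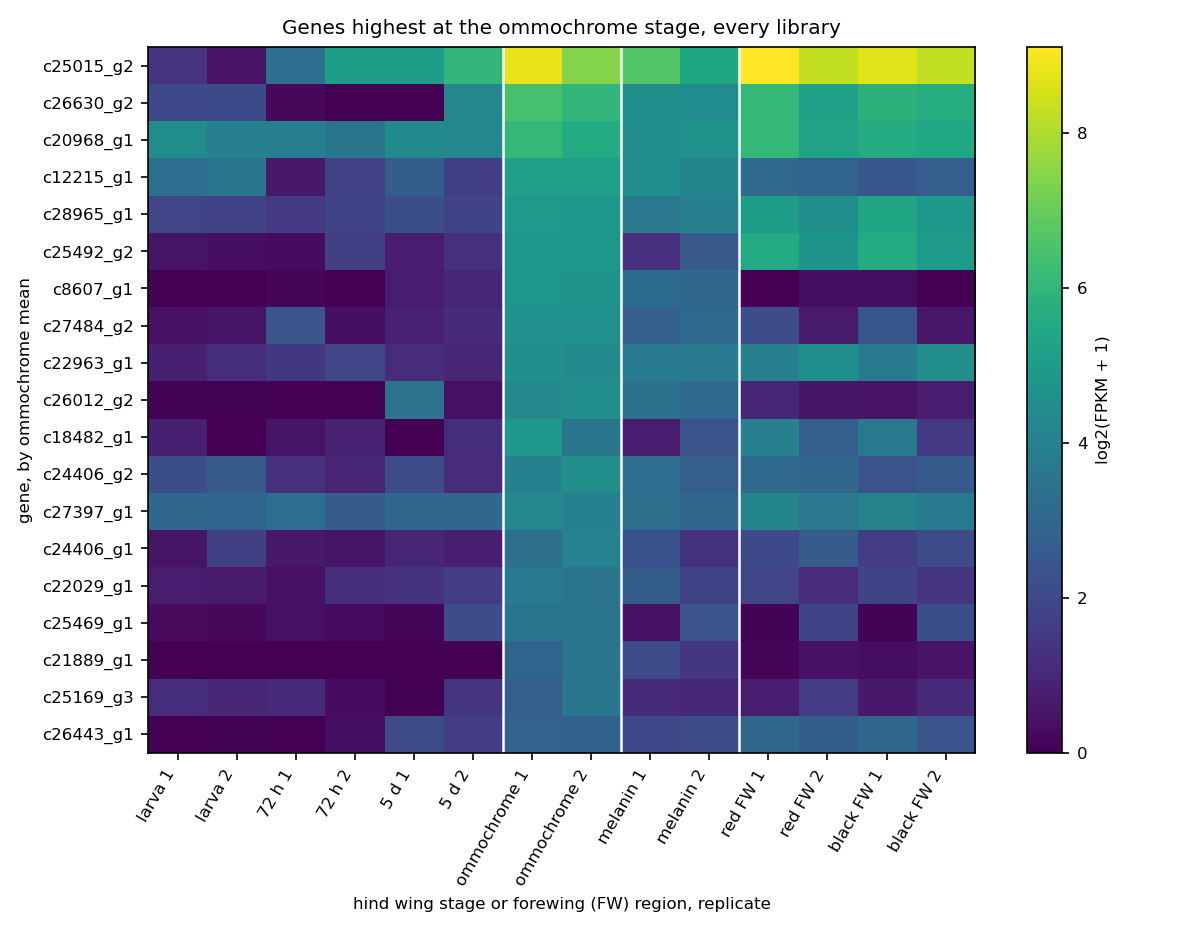
Level of each of the 19 genes in each of the 14 libraries, as log2(FPKM + 1) by colour, with genes ordered by their ommochrome mean and white lines around the ommochrome hind wings and before the forewing (FW) regions. The ommochrome columns are the brightest hind wing columns in every row, as the choice of genes requires, while the forewing columns range from as bright to nearly dark.

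In most of these genes the melanin stage was the next highest hind wing stage. Its mean was the highest of the 4 other hind wing stages in 18 of the 19 genes, the exception being c25169_g3, where the larva was next at 1.12 FPKM against 1.08. The highest single library among the 8 was a melanin library in 16 genes and a 5 d library in 3. The rule leaves out genes that were high in any of these 8 libraries. The matching shares over all genes were not computed, so nothing is read from these counts. Relative to the ommochrome mean, the melanin mean had a median of 29.7% (range 11.5% to 59.6%), the 5 d mean 11.2% (0% to 44.3%), the 72 h mean 4.62% (0% to 43.2%) and the larval mean 4.08% (0% to 42.6%). The rule sets an upper bound on these percentages. Below it, genes differed in how sharp the peak was, from c25492_g2 with 11.5% left at the melanin stage to c22963_g1 with 59.6%.

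At the limit of the rule, c22963_g1 was just inside, with a lower ommochrome library of 19.3 FPKM and a highest other library of 12.7, a ratio of 1.52. The next was c12215_g1 with 34.0 and 21.3 FPKM, a ratio of 1.59. Just outside were c26533_g1, with 22.8 and 15.7 FPKM and a ratio of 1.45, and c28395_g7, with 5.44 and 3.78 FPKM and a ratio of 1.44. The 3 genes removed by the forewing condition were all low in forewings: c27120_g1 averaged 0.51 FPKM in red and 0.15 in black regions, c22215_g1 averaged 1.47 and 0.34, and c18760_g2 was listed at 0 in all 4 forewing libraries, where no ratio exists.

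The level of these genes in the forewing was not used directly to choose them, and it varied widely. The limit on the red to black ratio was not neutral to it, as the 3 genes it removed were low there. With that limit, 8 of 19 genes had all 4 forewing libraries at or below the highest other hind wing library. Without it the count was 11 of 22. Relative to the ommochrome hind wing mean, the mean of the 4 forewing libraries ran from 0.554% to 139% with a median of 32.5%. It was at least 80% in 7 genes, 5% to 80% in 9 and under 5% in 3. The 80% and 5% limits serve description only. In 7 genes all 4 forewing libraries were above each of the 8 other hind wing libraries, an arrangement seen in 4.82% of the 10780 genes tested. These were the genes at 80% or more, with c26630_g2 in place of c22963_g1. In 8 genes all 4 were at or below the highest of those 8 libraries (86.6% of all genes), in 10 genes all 4 were below the lower ommochrome library (34.3% of all genes), and in 1 gene all 4 were at or above it (35.6% of all genes). Because the rule holds the ommochrome values up and the other hind wing values down, nothing is read from these shares and no test was made between the wings.

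**Figure D2:**
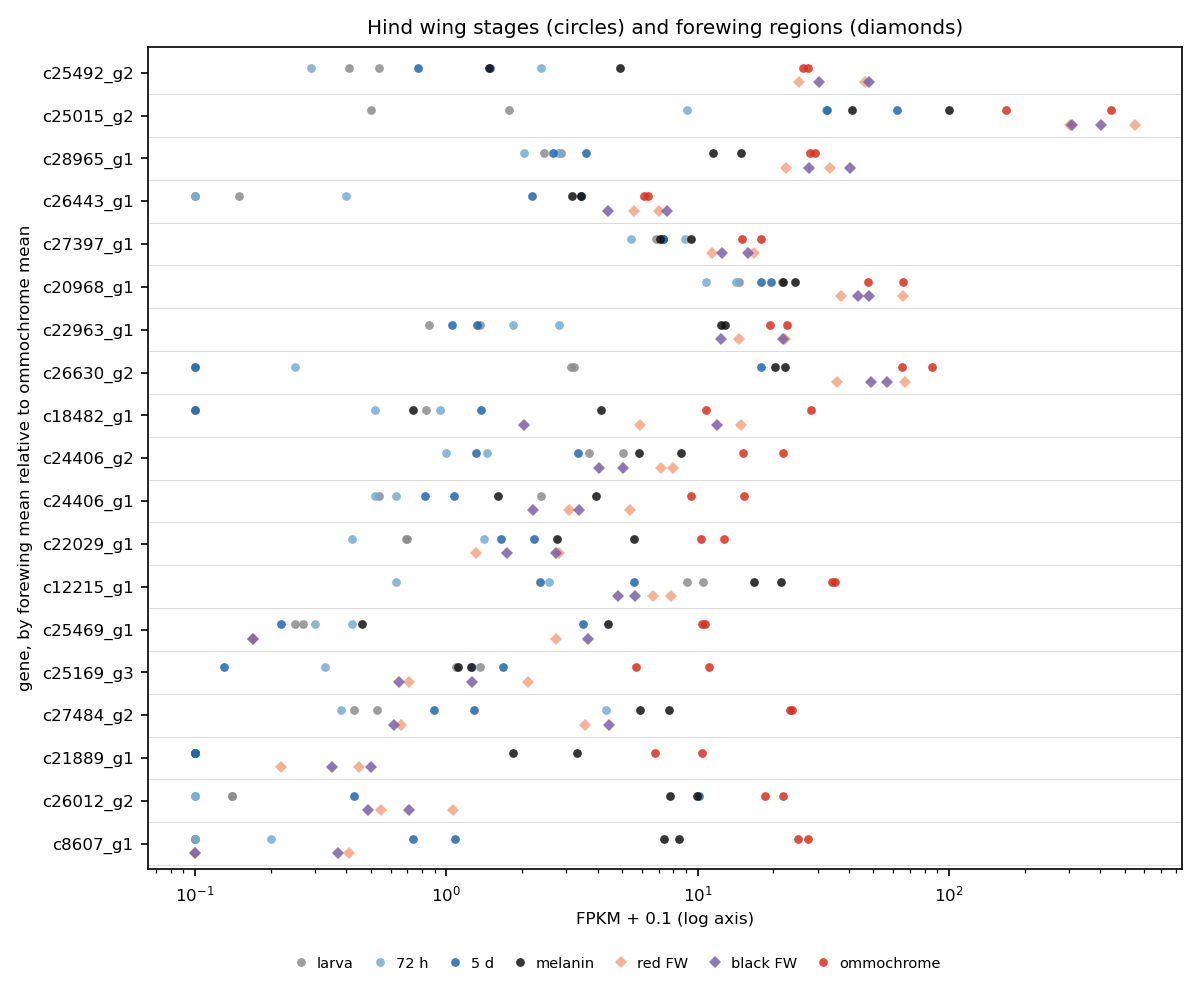
FPKM + 0.1 on a log axis for each of the 19 genes, with hind wing libraries as circles and forewing libraries as diamonds, 2 of each group, ordered by the forewing mean relative to the ommochrome mean. At the top the diamonds lie level with the red ommochrome circles, and in the 3 lowest rows they lie at 0.96 FPKM or less, among or near the earliest stages.

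The most abundant gene, c25015_g2, overlapped between the forewing and the ommochrome hind wing. Its hind wing libraries read 1.67 and 0.40 FPKM in the larva, 8.95 and 32.3 at 72 h, 32.6 and 62.3 at 5 d, 441 and 169 in ommochrome and 100.2 and 41.0 in melanin hind wings. Its forewing libraries read 550.1 and 304 FPKM in red and 401 and 308 in black regions. The ommochrome replicates of this gene differed 2.61-fold, and all 4 forewing values lay above the lower of them.

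Gene c25492_g2 had the largest ratio between the ommochrome and the other hind wing libraries, 5.44. It was at 26.2 and 27.5 FPKM at the ommochrome stage, at 1.38 and 4.82 in melanin wings and at 0.19 to 2.29 in the 6 earlier libraries. The forewing read 46.1 and 25.1 FPKM in red and 47.9 and 30.3 in black regions. Forewing and ommochrome libraries overlapped, and every one of them was above all other libraries.

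Gene c28965_g1 lay at 1.93 to 3.51 FPKM through the larval, 72 h and 5 d libraries. It then read 29.1 and 27.8 in ommochrome and 11.4 and 14.8 in melanin wings. The red regions were at 33.6 and 22.4 FPKM and the black ones at 40.1 and 27.7. The forewing values lay on both sides of the ommochrome values and above both melanin values.

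A pair of genes were active throughout, with a low peak over the other stages. Gene c20968_g1 lay at 10.7 to 24.4 FPKM in the 8 other hind wing libraries, at 65.9 and 47.6 at the ommochrome stage and at 37.0 to 65.6 in the forewing. Gene c27397_g1 lay at 5.32 to 9.28 FPKM in the 8 others, at 17.8 and 14.9 at the ommochrome stage and at 11.4 to 16.7 in the forewing. In both, no forewing library overlapped the 8 others. These were among the 3 members with at least 1 FPKM in all 14 libraries, the third being c28965_g1.

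Gene c26443_g1, the least abundant member, was close to the floor in the larva and at 72 h (0 to 0.30 FPKM). It read 3.34 and 2.10 at 5 d, 6.27 and 6.02 in ommochrome and 3.05 and 3.33 in melanin wings, and 4.30 to 7.47 in the forewing. Gene c22963_g1 read 0.75 to 2.71 FPKM up to 5 d, 22.7 and 19.3 at the ommochrome stage, 12.7 and 12.3 in melanin wings, and 14.6, 22.2, 12.3 and 21.8 in red 1, red 2, black 1 and black 2. Its forewing libraries reached from the melanin to the ommochrome level of the hind wing.

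These 7 were the genes with a forewing mean of at least 80% of the ommochrome mean, and below them came 2 with intermediate levels. Gene c26630_g2 was at 85.9 and 64.7 FPKM at the ommochrome stage, 22.2 and 20.3 in melanin wings and 35.7 to 66.7 in the forewing. Its 5 d libraries disagreed, at 0 and 17.7 FPKM, and its 72 h libraries read 0.15 and 0 after 3.03 and 3.12 in the larva. Gene c18482_g1 rested on uneven replicates throughout, with 28.3 and 10.7 FPKM at the ommochrome stage, 0.64 and 4.04 in melanin wings, 14.7 and 5.81 in red and 11.9 and 1.94 in black regions.

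In 7 further genes the forewing mean was 9.52% to 32.5% of the ommochrome mean. The most abundant was c12215_g1, at 35.2 and 34.0 FPKM in ommochrome and 21.3 and 16.7 in melanin hind wings, but 4.74 to 7.73 in the forewing, below the larval values of 9.01 and 10.4. Gene c27484_g2 was steady at 23.3 and 23.6 FPKM in ommochrome and 5.78 and 7.60 in melanin hind wings, and read 3.48 and 0.56 in red and 4.36 and 0.52 in black regions. The other 5 (c24406_g2, c24406_g1, c22029_g1, c25469_g1 and c25169_g3) had ommochrome means of 8.29 to 18.3 FPKM and forewing means of 1.08 to 5.96. Each of these 7 had all forewing libraries below both ommochrome libraries.

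The remaining 3 genes read under 1 FPKM in all 4 forewing libraries. Gene c8607_g1 was at 27.4 and 24.9 FPKM in ommochrome and 8.30 and 7.24 in melanin hind wings, against 0 and 0.31 in red and 0.27 and 0 in black regions. It was listed at 0 in both larval libraries and in 72 h replicate 2, and at 0.10 in 72 h replicate 1. At 5 d it read 0.64 and 0.98 FPKM, and all 4 forewing libraries were below both of these values.

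Gene c21889_g1 stood at 0 in each of the 6 larval, 72 h and 5 d libraries. It read 6.66 and 10.3 FPKM at the ommochrome stage, 3.22 and 1.74 in melanin wings and 0.12 to 0.40 in the forewing. No other member was at 0 in all early libraries. Gene c26012_g2 was at 0.04 FPKM or less in larva and 72 h, at 10 and 0.33 at 5 d, at 18.5 and 21.9 at the ommochrome stage, at 9.82 and 7.68 in melanin wings and at 0.39 to 0.96 in the forewing. Its 5 d replicates were the furthest apart of its groups, and the higher one set its ratio of 1.85.

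Differences among the other hind wing stages were tested one step at a time. The rule used the highest of these 8 libraries as a ceiling, which fell on a melanin library in 16 members, so the tests are not independent of how the genes were chosen. The ceiling is the same for every stage and sets no order below it, but it bounded the values tested. Adjusted p values of members are therefore given as description. Counts of called members describe the set beside the share of all genes, and nothing is read from them. A limma model of log2(FPKM + 1) was fitted to all 14 libraries for the 10780 genes that reached 1 FPKM in 2 or more of them, and a gene was called at a Benjamini-Hochberg adjusted p under 0.05 over all of these genes. All 19 members would have passed this filter without the ommochrome libraries. The replicates may be technical, so the tests speak for these libraries alone. Each test weighs a difference against 1 spread per gene, pooled over all 7 groups and moderated across genes. It does not use the spread of the compared stages alone. As the replicate spread was widest at 72 h (SD 1.19), the error of the comparisons with 72 h can be understated.

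The stages before and after the peak were compared first, and 6 of the 19 genes were higher at the melanin stage than at 5 d and 0 were lower, with 8 at an unadjusted p under 0.05. Among all genes 13.6% were called higher and 4.32% lower. The log2 change was positive in 19 of 19 members as deposited and in 16 with median-of-ratios or quantile scaling, with a median as deposited of 0.93 (0.14 to 2.70) against 0.29 over all genes. Both melanin libraries were above both 5 d libraries in 11 members, as in 40.2% of all genes, and the reverse order was seen in 0 members and 13.6% of all genes. With median-of-ratios scaling the median of all genes moved to 0, the median of the members was 0.74, and c20968_g1, c27397_g1 and c26443_g1 turned slightly negative, with 6 members called higher. That scaling gave 801 genes higher and 784 lower in all, against 1469 and 466 as deposited.

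The 6 called genes were spread over the forewing classes. Gene c22963_g1 went from 1.09 ± 0.198 FPKM (SD, n = 2) at 5 d to 12.5 ± 0.276 at the melanin stage (limma adjusted p = 0.000341, log2 change 2.70 with SE 0.311). Gene c8607_g1 went from 0.81 ± 0.24 to 7.77 ± 0.75 FPKM (limma adjusted p = 0.000137, log2 change 2.28 with SE 0.224). Both had low spread between replicates on either side of the peak.

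Gene c12215_g1 went from 3.88 ± 2.29 FPKM at 5 d to 19.0 ± 3.25 at the melanin stage (limma adjusted p = 0.00584, log2 change 2.11 with SE 0.4). Gene c28965_g1 went from 3.03 ± 0.679 to 13.1 ± 2.36 FPKM (limma adjusted p = 0.00189, log2 change 1.81 with SE 0.277). Neither was called between 72 h and 5 d, where the limma adjusted p was 0.107 and 0.522.

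Gene c21889_g1, at 0 in the 5 d libraries, had 2.48 ± 1.05 FPKM at the melanin stage (limma adjusted p = 0.00159, log2 change 1.77 with SE 0.262), where no fold is given because one side is 0. Gene c24406_g2 went from 2.23 ± 1.44 to 7.13 ± 1.96 FPKM (limma adjusted p = 0.0196, log2 change 1.39 with SE 0.34). This last call was lost in a limma fit without 5 d replicate 2 (adjusted p = 0.127), without melanin replicate 1 (adjusted p = 0.118) and in hind wing libraries alone (adjusted p = 0.054), within a range of 0.00735 to 0.127 over its alternatives.

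**Figure D3:**
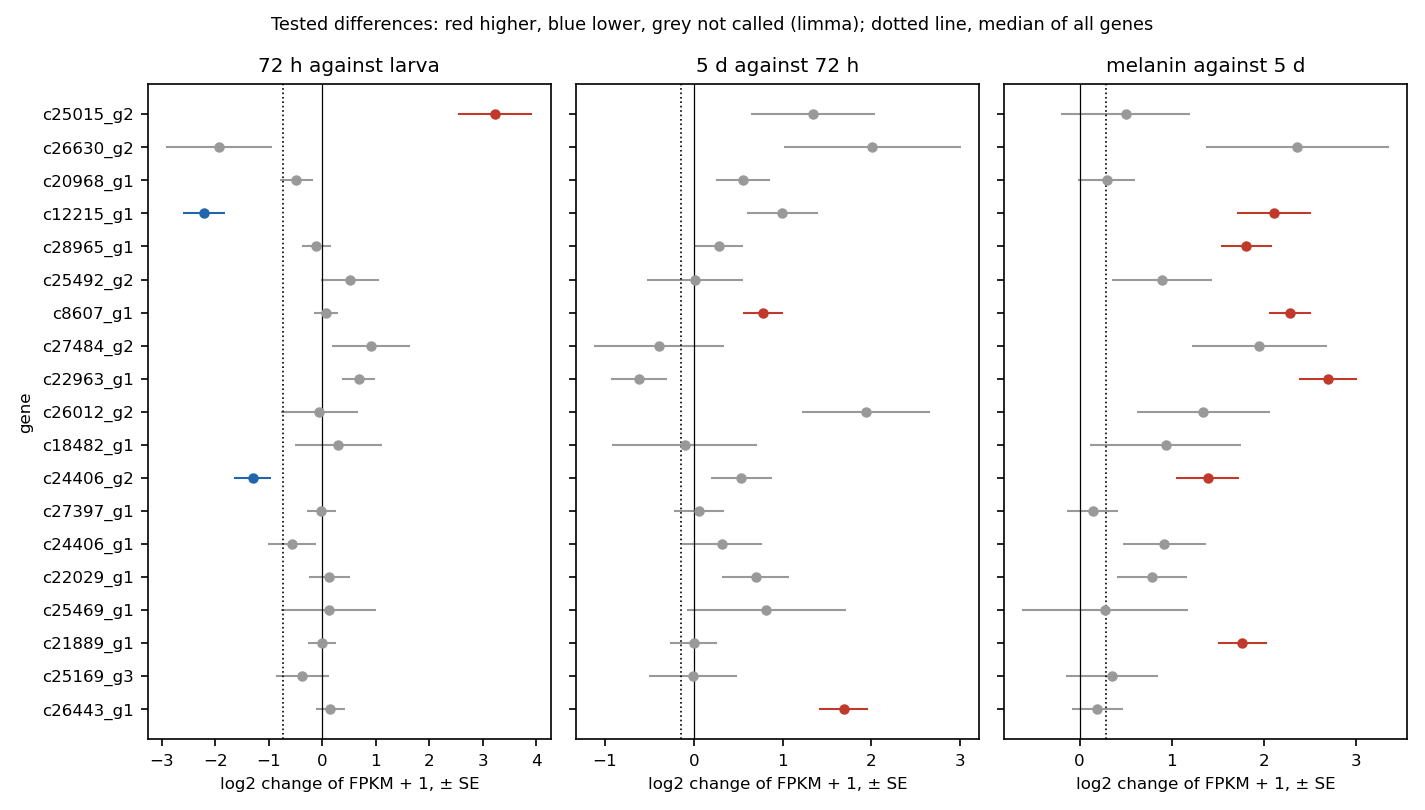
Log2 change of FPKM + 1 with its standard error for the 19 genes in the 3 tested comparisons, with red for genes called higher, blue for genes called lower, grey for genes not called and a dotted line at the median of all genes. In these deposited values every gene of the right panel lies right of 0 (16 of 19 with median-of-ratios or quantile scaling) and 6 are called, while the left panel is spread around 0 with 3 calls.

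Larva was not tested against 5 d directly. Between larva and 72 h, 1 member rose and 2 fell, where 7.71% of all genes rose and 44.5% fell, and the members' median change was 0 against -0.73 over all genes. With median-of-ratios scaling these medians were 0.23 and 0, with quantile normalization 0.19 and -0.06, and with equal FPKM totals 0.10 and -0.46. The gap was thus smaller under median-of-ratios and quantile scaling than as deposited or with equal totals. Gene c25015_g2 rose from 1.03 ± 0.898 to 20.6 ± 16.5 FPKM (limma adjusted p = 0.00336, log2 change 3.24 with SE 0.698). Gene c12215_g1 fell from 9.71 ± 0.983 to 1.5 ± 1.37 FPKM (limma adjusted p = 0.00126, log2 change -2.21 with SE 0.4).

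Gene c24406_g2 fell from 4.26 ± 0.948 in the larva to 1.12 ± 0.318 FPKM at 72 h (limma adjusted p = 0.00903, log2 change -1.30 with SE 0.34). This call was lost with median-of-ratios scaling (adjusted p = 0.169), with quantile normalization (adjusted p = 0.0773) and without larval replicate 2 (adjusted p = 0.0633), within a range of 0.00367 to 0.169 over its alternatives. With median-of-ratios scaling 3 members rose and 1 fell, beside 1553 rises and 1678 falls over all genes (831 and 4801 as deposited).

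From 72 h to 5 d, 2 members rose and 0 fell, with 4 at an unadjusted p under 0.05, where 9.42% of all genes rose and 12.3% fell. The median change was 0.54 against -0.14 over all genes, 0.71 against 0 with median-of-ratios scaling and 0.60 against -0.06 with quantile normalization. Gene c26443_g1 rose from 0.15 ± 0.212 to 2.72 ± 0.877 FPKM (limma adjusted p = 0.00219, log2 change 1.69 with SE 0.278) and was not called between 5 d and the melanin stage (limma adjusted p = 0.693, log2 change 0.19 with SE 0.278). Gene c8607_g1 rose from 0.05 ± 0.0707 to 0.81 ± 0.24 FPKM (limma adjusted p = 0.0333, log2 change 0.78 with SE 0.224). Every library of both stages read under 1 FPKM in this gene, near the floor. With a pseudocount of 5 it was not called (limma adjusted p = 0.168). That second call was lost in 9 of 23 alternatives, among them the fits without a larval, 72 h or ommochrome library and without 5 d replicate 2 (adjusted p 0.0511 to 0.155 in these), within a range of 0.0189 to 0.168. Median-of-ratios scaling gave 1394 rises and 998 falls over all genes, against 1015 and 1322.

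Some members shared the first part of their identifier with other genes, which is read here as an assembled component. This reading rests on the identifier alone, as no assembler is named and no sequence was available. If genes of a component are similar, reads can be divided between them and their values are less certain, which was not tested. A component was shared by 7 of the 19, against 4784 of all 13876 genes. Genes c24406_g1 and c24406_g2 were members from the same component, at 9.29 and 15.2 and at 15.0 and 21.7 FPKM at the ommochrome stage, with the same replicate higher in both.

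The other 5 members of this kind had 7 partner genes outside the set. Of these, 4 also had their highest hind wing mean at the ommochrome stage, 2 in the larva and 1 at the melanin stage, where 8.57% of the 10780 genes tested had theirs at the ommochrome stage. One of the 4, c27484_g7, was under 1 FPKM in every library (0.47 and 0.34 at the ommochrome stage, 0.39 and 0.35 in melanin wings). It was therefore not among the genes tested. The partners were reached through members that peak at this stage, so nothing is read from 4 of 7 beside 8.57%. Gene c22963_g4 resembled its partner c22963_g1, with 1.02 to 2.32 FPKM up to 5 d, 15.5 and 15.9 at the ommochrome stage, 9.15 and 11.01 in melanin wings and 5.98 to 10.4 in the forewing. Gene c25015_g3 read 81.2 and 32.2 FPKM at the ommochrome stage, with replicate 1 the higher, as in c25015_g2. It read 17.69 and 47.85 FPKM at 5 d and 36.97 and 20.6 at the melanin stage. Its lower ommochrome library was thus below a 5 d and a melanin library. In contrast c25169_g1, the partner of c25169_g3, was abundant at every stage with 36.2 to 208 FPKM. A member and its partner are not independent observations where their reads were shared.

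Within the forewing, libraries of the same replicate number lay together in most of these genes. In 15 of the 19 both libraries of one replicate number lay above both of the other, with replicate 1 the higher in 10 and replicate 2 in 5. Among all 10780 genes tested, this order was seen in 35%, with replicate 1 higher in 22.8% and replicate 2 in 12.2%. Both red libraries were above both black ones in 2 members and the reverse in 0, against 35.2% and 7.01% of all genes. The rule had limited the red to black ratio, so nothing is read from these counts. Red and black deviations of one replicate number had a correlation of 0.431 across genes, against -0.116 to 0.0591 for the other pairs of groups. What the numbers stand for in the forewing is not in the labels, and their part in these values was not tested.

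An example with a wide gap was c25469_g1. It read 0.07 FPKM in red 1 and in black 1, and 2.63 and 3.55 in red 2 and black 2. In hind wings it also read 0.12 and 3.40 FPKM at 5 d and 0.36 and 4.31 at the melanin stage, each time with replicate 2 the higher, while the ommochrome libraries were close at 10.7 and 10.3. Gene c27484_g2 went the other way, with 3.48 and 4.36 FPKM in red 1 and black 1 against 0.56 and 0.52 in red 2 and black 2, and 4.24 against 0.28 in the 72 h replicates. Both genes were chosen after their values were seen.

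The same rule was then applied with each other stage as the peak. It found 2371 genes for the larva, 165 for 72 h, 117 for 5 d and 54 for the melanin stage, against 19 for the ommochrome stage, the smallest set. The larval count depended most on scaling, at 537 with median-of-ratios, 742 with quantile and 1316 with equal-total scaling. In that order of scalings it was 244, 254 and 169 for 72 h and 205, 182 and 135 for 5 d. The median ratio of the lower peak library to the highest other one was 2.14 for the larva, 2.52 for 72 h, 2.62 for 5 d, 1.95 for the ommochrome and 1.79 for the melanin stage. All 4 forewing libraries were at or below the highest of the 8 other hind wing libraries in 69.8%, 81.8% and 80.3% of the larval, 72 h and 5 d genes, in 42.1% of the ommochrome and in 35.2% of the melanin genes. As a share of the peak mean, the median forewing mean was 25.4%, 6.4%, 9.7%, 32.5% and 46.6% in that order of stages. These differences between sets are described and were not tested.

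**Figure D4:**
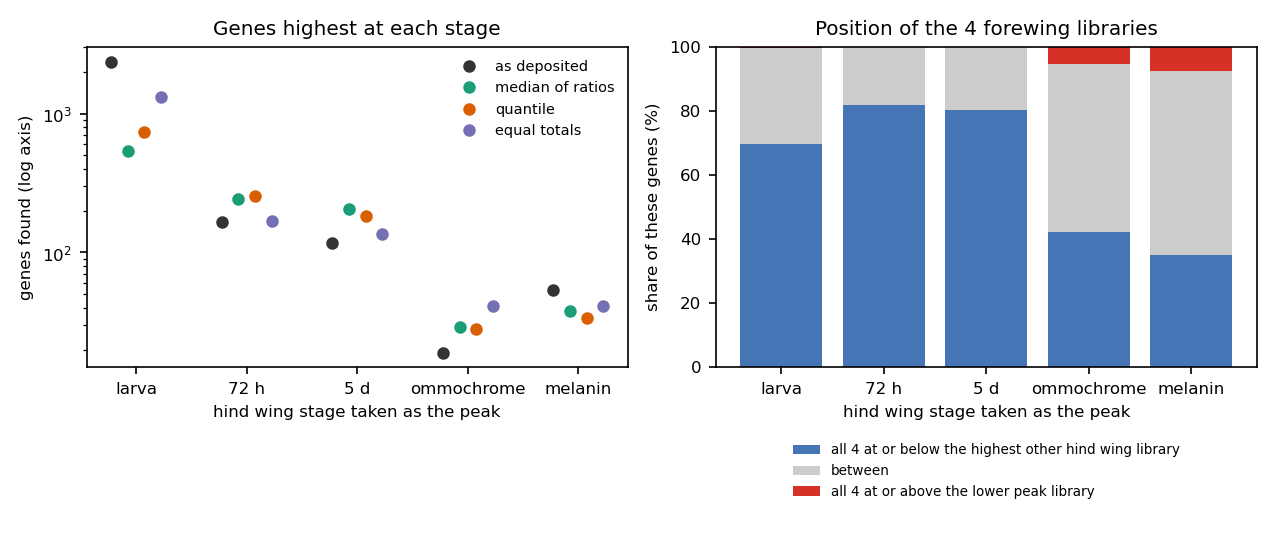
Left, number of genes that the same rule finds with each hind wing stage as the peak, on a log axis, for FPKM as deposited and under 3 other scalings. Right, share of the genes found in the deposited values whose 4 forewing libraries lie at or below the highest other hind wing library, at or above the lower peak library, or between, for 19 ommochrome and 54 melanin genes.

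The size of the set depended on how libraries were scaled against each other. The ommochrome libraries had the smallest summed FPKM, 560033 and 482546. Median-of-ratios scaling divided them by 1.03 and 0.939, and the larval libraries by 1.80 and 1.84. The part of these totals and factors in the size of the set was not tested. The set was 29 genes with median-of-ratios scaling, 28 with quantile normalization and 41 with equal FPKM totals, and each of these held all 19 members. It was the smallest of the 5 sets as deposited and under median-of-ratios and quantile scaling (next came 38 and 34 melanin genes), while with equal totals the melanin stage also had 41.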

How the data were processed

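Poly-A RNA of V. cardui wings was sequenced as 150 bp paired-end reads, per the labels' protocols. The submitters' processing notes name Bowtie as the aligner, without a version. A de novo transcriptome is named in the series title. No assembler, quantifier or gene filter is named in the labels, headers or notes. The authors deposited FPKM per gene and library, with 2 decimals. Each value depends on the library's total, and a few abundant genes can shift all others. The absolute depth is unknown. Relative depth was estimated from the steps of values between 0.05 and 3 FPKM over 91 pairs of libraries, 69 of which lay within 0.1 log2 of the fit, and the estimate was tested on simulated data.

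Values were analysed as log2(FPKM + 1), on which changes of low genes are understated, with limma 3.58.1 in R 4.3.3 (7 group means, no covariate, spread prior following the mean, 7 residual and 2.88 prior degrees of freedom, two-sided). The fit was tested on simulated data with known changes. Of log2 changes of 2 or 3, 78% to 93% were called in each comparison, with 5 to 10 false calls. The simulation drew independent errors with 1 spread per gene in every group. It therefore does not check those assumptions for these libraries. The pooled spread counts the red and black forewing libraries as independent. Their deviations of one replicate number correlated at 0.431 across genes, which the model leaves out, so p-values can be too small. Groups come from the sample titles. All members are named by identifier. The rest used Python 3.11.15, NumPy 2.4.6, pandas 2.3.3 and matplotlib 3.10.9. The members, rules and comparisons were chosen with earlier results of these data known. Alternatives were pseudocount, filter, scaling, hind wing libraries alone, a replicate block, each library left out, and other limits in the rule.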

Additional observations from a re-analysis of the deposited data

How the results depend on the processing

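Each called change of a member was recomputed under every alternative that applied to it, which gave 259 values: 0 reversed, 244 stayed called and 15 were no longer called. The log2 change cannot move with other filters, hind wing libraries alone, a replicate block or a left-out library of another group. There only the p-value could move, so the 0 reversed was partly fixed in advance. The count of members was 29, 28 and 41 under median-of-ratios, quantile and equal-total scaling, 39 with a looser excess, 9 with an excess of 2 times, 37 with a minimum of 1 FPKM, 15 with 10 FPKM and 22 with no forewing limit. With single libraries left out it ran from 15 to 59, highest without an ommochrome (43 and 59) or a melanin library (45 and 50). The cause was not tested, except that a rule over fewer ommochrome or melanin libraries asks less by its construction. The count with all 4 forewing libraries at or above the lower ommochrome library, 1, became 5, 4 and 6 under median-of-ratios, quantile and equal-total scaling, 5 with the looser excess, 0 at 2 times and 5 at 1 FPKM (1 to 15 with libraries left out). The count in between, 10, became 17 with equal totals, 5 at 2 times and 17 at 1 FPKM (6 to 35). The count at or below the other hind wing libraries, 8, became 18 with equal totals, 20 with the looser excess, 4 at 2 times and 15 at 1 FPKM (5 to 23).

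Members called ranged over left-out libraries from 2 to 4 for 72 h against larva, from 1 to 3 for 5 d against 72 h and from 5 to 7 for melanin against 5 d. The count for 5 d against 72 h was 1 with a pseudocount of 5 and in hind wing libraries alone. Over all genes, calls for 72 h against larva fell from 5632 to 3231 (median-of-ratios) and 3493 (quantile), and those for melanin against 5 d from 1935 to 1278 in hind wings alone, 1121 without 5 d replicate 2 and 1201 without melanin replicate 1.

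Same-numbered libraries share only a number in the labels. Their deviations correlated across genes at 0.0174 (larva and 72 h), 0.0123 (72 h and 5 d) and -0.116 (5 d and melanin). With the number as a replicate block, 3, 2 and 6 members were called, as without it, and over all genes 5605, 2279 and 1951 were. With the 5 d numbers swapped in the block, an alternative chosen after seeing the data, 6 members and 1820 genes were called for melanin against 5 d. Depth limits low values most in melanin replicate 1.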
